A study of Arabidopsis thaliana with 6 samples.

Results

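The transcriptome of young leaves of *Arabidopsis thaliana* was described from 1 mRNA library, by the mean exon depth of each of the 20764 loci in its deposited table. Every locus in that table was used, with its identifier and its depth, and none was chosen by its value. This library was 1 of 6 samples of a series that also holds 2 H3K4me3 and 2 H3K27me3 chromatin immunoprecipitation samples and 1 input DNA sample. All came from accession Columbia-0 (Col-0), the usual laboratory strain, grown in soil at 22.5 °C in short days with 8 h of light and 16 h of darkness, with no treatment or transgene named in the labels. The mRNA library was made from total RNA with an Illumina TruSeq RNA v2 kit, which selects polyadenylated RNA, and was read on a Genome Analyzer IIx. Plant age and the number of plants pooled were not given in the sources used here.

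Depth here is the mean number of reads over a base of a locus, and it ranks loci within the library. The lowest value in the table was exactly 1, held by 1590 loci or 7.66%, so the mean appears to cover only bases with at least 1 read. If so, uncovered bases do not lower the mean, so depth is not fully relative to length and shallow loci can rank too high. A locus that was not in the table is called not listed below, and its expression is then unknown rather than absent. With 1 library there was no replicate error for any depth, and no test between groups was made. The total number of reads was not given, so the counting error of a single depth is unknown.

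A young leaf turns from a growing organ into a photosynthetic one. Its mesophyll cells fill with chloroplasts, whose light-harvesting antennae, photosystems and carbon-fixing enzymes are built from proteins encoded partly in the chloroplast genome and mostly in the nucleus. Nuclear genes for these proteins are among the most strongly expressed genes of green tissue, while genes for transcription factors and signalling proteins usually make few transcripts. The epidermis, with its guard cells and trichomes, and the veins, with phloem and xylem, add transcripts of their own.

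Depth was very unevenly spread over the loci. The median was 6.74 (95% interval 6.58 to 6.89 over loci), the middle part of the table ran from 2.43 at the lower quartile to 16.3 at the upper, and the highest depth was 22244. A depth of at least 10 was reached by 7929 loci (38.2%), of at least 100 by 809 loci (3.90%) and of at least 1000 by 73 loci (0.352%). When the depths of all loci were added, 29 loci held 25% of the sum, 282 held 50%, 2121 held 75% and 6599 held 90%. The shallower 50% of loci together held 4.61%. Of 27444 protein-coding loci on the nuclear chromosomes of the reference, 19993 were listed, which is 72.9%.

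All of the 15 deepest loci were genes of photosynthesis. CAB1 (AT1G29930), a gene for LHCB1, the main light-harvesting chlorophyll-binding protein of photosystem II, had a depth of 22244 and alone held 3.40% of the summed depth. RBCS1A (AT1G67090), a gene for the small subunit of the carbon-fixing enzyme Rubisco, followed at 12915. The next 3 loci were again LHCB1 genes, CAB3 (AT1G29910) at 10871, LHB1B2 (AT2G34420) at 10377 and CAB2 (AT1G29920) at 8364, and the fifth LHCB1 gene, LHB1B1 (AT2G34430), stood at rank 9 with 5129. Between and below them were LHCB3 (AT5G54270), a further antenna gene of photosystem II, at 6628, and the photosystem I antenna genes LHCA3 (AT1G61520) at 6006, LHCA4 (AT3G47470) at 5700.02 and LHCA1 (AT3G54890) at 4934.

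Ranks 11 to 15 went to subunits and carriers rather than to the main antenna. PSAF (AT1G31330), a photosystem I subunit at which plastocyanin docks, had 4716, and the photosystem I subunit PSAG (AT1G55670) had 4405. DRT112 (AT1G20340), a gene for the electron carrier plastocyanin, had 4366. PSBO1 (AT5G66570), which stabilises the oxygen-evolving centre of photosystem II, had 4304, and LHCB6 (AT1G15820), a minor antenna gene, had 4288. Of these 15 loci, 6 overlap another annotated locus in the reference, and the 5 listed overlap partners had at most 0.751% of the depth of the deep locus. Reads of overlapping loci cannot be told apart here, since the sources used here do not say whether strand was used.

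Further down the ranking other functions came in. Photosynthesis genes were 44 of the deepest 50 loci, 64 of the deepest 100, 93 of the deepest 500 and 103 of the deepest 1000. They were 117 of the 20764 loci, or 0.563%, and held 34.7% of the summed depth, with a median depth of 835. Genes of protein synthesis and turnover that were in a function group were absent from the deepest 50, and were 2 of the deepest 100, 11 of the deepest 200 and 43 of the deepest 500. All such counts are lower bounds, since 25 of the deepest 100 and 328 of the deepest 500 loci were in no function group. The regulators, 331 listed loci of transcription factor and auxin response families, had none in the deepest 500 and 4 in the deepest 1000. Together those regulators held 0.472% of the summed depth.

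**Figure D1:**
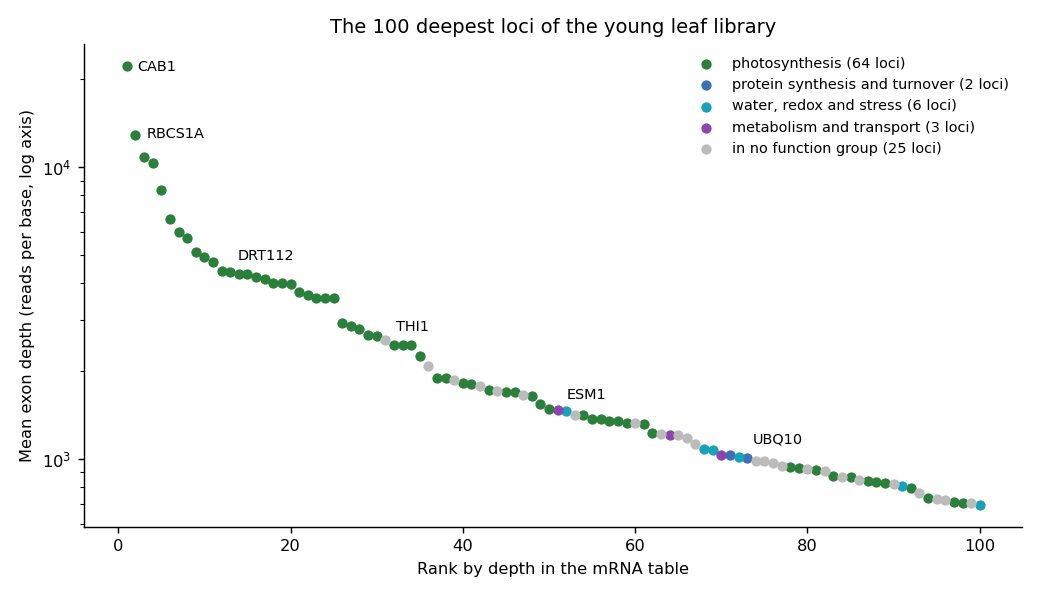
Each point is 1 of the 100 deepest loci, with its rank on the x axis and its mean exon depth in reads per base on a log y axis, coloured by function. All loci at ranks 1 to 15 are photosynthesis genes, and 25 of the 100 loci belong to no function group.

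Among the 100 deepest loci, 25 were in none of the 38 function groups, and those named next were picked after their values were seen. THI1, which makes the thiazole part of thiamine, was the deepest of them at 2548, rank 31. ELP, an extensin-like protein gene, had 1859 and the peroxidase gene PRXR1 had 1784. CA1, a carbonic anhydrase gene of the chloroplast, had 1204. PSI-P, also named CURT1B for its role in bending thylakoid membranes, had 986, and the nitrilase gene NIT1 had 906. ATMS1, a methionine synthase gene, had 865, the heat shock cognate gene HSC70-1 had 849, and COR15A, a chloroplast protein gene known for its induction by cold, had 819.

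Loci without a gene symbol in the reference were rarer at the top. They made up 57.6% of all matched loci, 35.4% of the deepest 1000 and 13 of the deepest 100. The deepest of them was AT1G09310, at 2087 and rank 36, followed by AT1G13930 at 1708 and AT2G45180 at 1656. AT1G51402 at 1419 and AT1G51400 at 1329 overlap each other in the reference, so their depths may not be separate measurements.

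The function groups were made from gene symbols and synonyms of the reference, and held 1653 loci, of which 1144 were listed. For each group the number listed and the median depth of the listed members are given beside those of all loci. In 27 of 38 groups the median lay above 6.74, the median of all loci. The 95% interval of the median, which covers only the spread over genes, lay wholly above that value in 15 groups and wholly below it in 5, with no interval for 2 groups of under 6 listed members. The deepest 10% of all listed loci began at a depth of 42.3, and membership in it was 10% over all loci by construction.

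**Figure D2:**
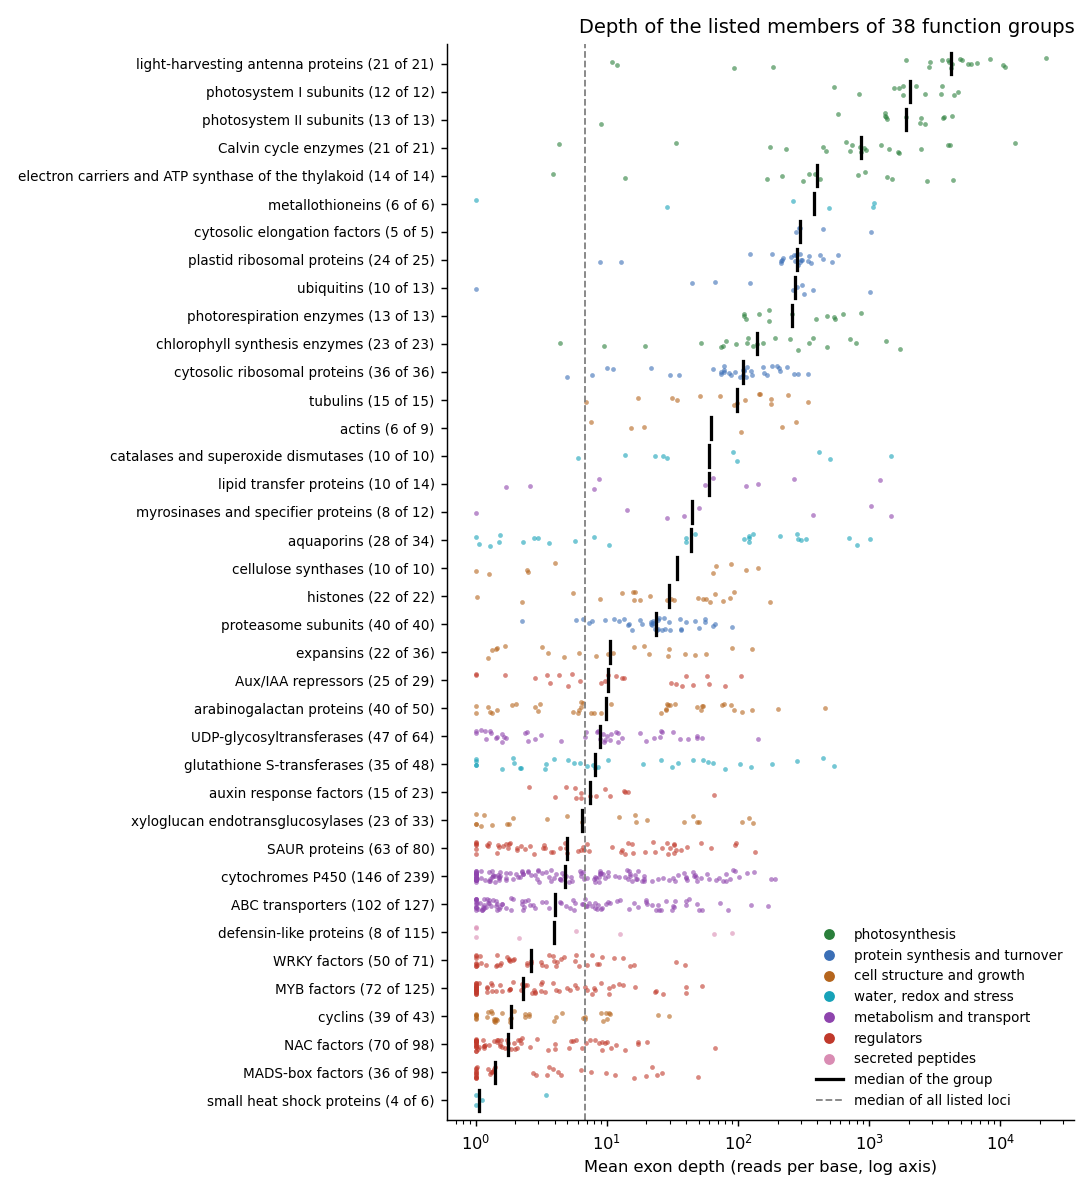
Each point is a listed member of 1 of 38 function groups, with its mean exon depth in reads per base on a log x axis; black bars are group medians and the dashed line is the median of all listed loci, 6.74. Numbers in brackets are members listed of members in the reference. The group medians run from 4214 for antenna proteins to 1.05 for small heat shock proteins.

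Light-harvesting antenna proteins, which collect light for both photosystems, had the highest group median. All 21 members were listed, 19 were in the deepest 10% of loci, the median was 4214 (95% interval 2847 to 6006), and the group held 16.6% of the summed depth. Members nevertheless ran over a range of 2050-fold. The lower end was LHCB4.3 at 10.9, AT1G76570, whose reference synonym is LHCB7, at 12.02, Lhca5 at 92.9 and Lhca6 at 183.

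Subunits of the photosystems were nearly all deep. All 12 nuclear photosystem I subunits were listed and in the deepest 10%, with a median of 2039 (95% interval 1540.23 to 3567). They ran from 535 for PSAE-2 to 4716 for PSAF, a range of 8.82-fold. The 13 photosystem II members were also all listed, with a median of 1891 (95% interval 1321 to 3655) and a range of 477-fold. PSBO1 at 4304, PSBP-1 at 3731, which like PSBO1 belongs to the oxygen-evolving complex, and PSBX at 3655 were the deepest. PSBP-2 at 9.03 was the only member under the deepest 10%, and the next lowest was PSB27, a photosystem II assembly protein, at 576.5. PSBP-2 overlaps AT2G30780, at 5.88.

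The thylakoid electron carriers and ATP synthase subunits were more mixed. The median of these 14 members was 400.3 (95% interval 165 to 1488). Plastocyanin DRT112 at 4366, the ferredoxin gene FED A at 2779 and ATPD, the delta subunit of the ATP synthase, at 1488 were the deepest. ATPC2, a copy of the ATP synthase gamma subunit, was the shallowest at 3.88 and overlaps AVP1, at 247. PGR5, needed for cyclic electron flow around photosystem I, had 165.

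In the Calvin cycle, which fixes carbon dioxide in the chloroplast, 19 of 21 members were in the deepest 10%. The median was 864 (95% interval 465 to 1643). RBCS1A alone held 35.3% of the depth of the group, followed by RBCS3B at 4152 and RCA, the activase that keeps Rubisco working, at 3998. Enzymes of the later steps were lower, with 1698 for the dehydrogenase gene GAPA-2, 913 for the phosphoribulokinase gene PRK, 465 for the bisphosphatase gene SBPASE and 176 for the triose phosphate isomerase gene TIM. The shallowest member was AT2G45290, listed in the reference as transketolase 2, at 4.34.

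Photorespiration recycles the product that Rubisco makes with oxygen, through chloroplasts, peroxisomes and mitochondria. All 13 members were in the deepest 10%, over a range of 7.93-fold and with a median of 256 (95% interval 114 to 546). AGT, the peroxisomal serine-glyoxylate aminotransferase, had 872, GS2, the plastid glutamine synthetase that takes up the released ammonium, had 632, and SHM1, the mitochondrial serine hydroxymethyltransferase, had 546. PGLP1, the phosphatase of the entry step, was the shallowest at 110.1.

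Chlorophyll synthesis genes ranged from 4.41 to 1726. The 23 members had a median of 141 (95% interval 80.3 to 347), and 20 were in the deepest 10%. CRD1, which acts in closing the fifth ring of chlorophyll, was the deepest at 1726. AT1G74470, which the reference names geranylgeranyl reductase, had 1345, and GUN5, a magnesium chelatase subunit, had 795. Of the other chelatase subunits CHLI1 had 370.02, CHLI2 had 80.3 and ALB1 had 76.1. HEMD, of the tetrapyrrole part of the pathway, had 19.5, and PORA, a protochlorophyllide reductase, was the shallowest at 4.41.

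Genes of protein synthesis and turnover had a median of 85.4 over 115 listed loci. Nuclear genes for plastid ribosomal proteins had a median of 281 (95% interval 217 to 342) over 24 listed of 25 members, led by SSR16 at 578, RPL12-C at 524 and RPL12-A at 445, with PSRP3/2 the shallowest at 8.88. PSRP3/2 overlaps GNA1, also at 8.88. The cytosolic ribosomal protein genes with a usable symbol, 36 of 36 listed, had a median of 109 (95% interval 77.6 to 128) and held 0.652% of the summed depth. This list is partial, since ribosomal protein genes without a symbol in the reference are not in it. Its deepest members were SAC52 at 339, RP1 at 287 and RPL23AA at 265, and RPSAb had the lowest depth at 4.95. Both intervals cover only the spread over genes of 1 library, and no difference between the plastid and cytosolic lists was tested.

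Among factors of translation and protein breakdown, the 5 elongation factor loci lay between 276 and 1029. LOS1, elongation factor 2, had 447. Of 13 ubiquitin genes 10 were listed, with UBQ10 at 1005, UBQ3 at 370.3 and UBQ5 at 319, and UBQ8 listed at exactly 1. All 40 proteasome subunit genes were listed, with a median of 23.6 (95% interval 18.4 to 27.5). They ran over a range of 39.8-fold, from PAC1 at 89.6, ATS9 at 67.2 and PAD1 at 64.0 down to RPN12b at 2.25.

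The genes of the cytoskeleton and of chromatin had medians above the upper quartile of all loci, 16.3, and 11 of 15 tubulins, 3 of 6 listed actins and 9 of 22 histones were in the deepest 10%. All 15 tubulin genes were listed, with a median of 97.7 (95% interval 34.2 to 178) and TUB1 lowest at 6.91. Of 9 actin genes 6 were listed, led by ACT7 at 275, ACT2 at 217 and ACT8 at 105, with ACT11 the shallowest listed at 7.55, and ACT4, ACT9 and ACT12 not listed. ACT2, ACT7 and ACT8 are known as the vegetative actins. The 22 histone genes with a symbol had a median of 29.8 (95% interval 15.9 to 61.1). HTB4, HTB9 and HTB11, all genes for histone H2B, led with 175, 92.5 and 86.2, and HTR11, a histone H3 gene, was the shallowest at 1.024.

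Cyclins, which drive the cell cycle, were shallow. Of 43 genes 39 were listed, but the median was 1.85 (95% interval 1.40 to 4.11) and 0 of 39 were in the deepest 10%. CYCD3;2, a D-type cyclin that promotes division in growing leaves, was the deepest at 29.5, then CYCP1;1 at 24.6 and CYCD1;1 at 10.5. CYCA1;2 was listed at exactly 1.

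Genes of the growing cell wall spread over a wide range. Expansins, which loosen walls, were listed for 22 of 36 genes with a median of 10.6 (95% interval 3.21 to 29.7), or 1.56 with unlisted members set to 0, and were led by EXPA1 at 128, EXPA8 at 90.5 and EXPA6 at 57.3, with EXPA14 lowest at 1.23. Xyloglucan endotransglucosylases, which cut and rejoin wall polymers, were listed for 23 of 33 genes, led by XTH31 at 130.1, XTH4 at 121 and XTH7 at 107, with XTH33 at 1. The median of that family was 6.44 (95% interval 1.73 to 38.6).

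Cellulose synthase genes fell into a deep and a shallow set. CEV1, a gene for the primary wall enzyme CESA3, had 142, CESA1 had 115, CESA6 had 88.8, CESA5 had 68.0 and CESA2 had 64.7. The other 5 members lay at or under 4.01, among them CESA4, IRX1 and IRX3, the enzymes of secondary walls, with 4.01, 2.48 and 2.44, and CESA10 at 1. Arabinogalactan proteins of the cell surface were listed for 40 of 50 genes, with AGP15 at 458, FLA8 at 201 and AGP21 at 128 as the deepest and AGP23 at 1.

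Aquaporins, the water channels of the plasma membrane and vacuole, were listed for 28 of 34 genes, and 14 of the 28 were in the deepest 10%. TIP2, of the vacuolar membrane, had 1012, and the plasma membrane channels PIP2A and PIP1B had 807 and 696. NLM1 was the shallowest listed at 1. The median was 43.6 with a 95% interval from 3.59 to 129, and no member lay between 10.3, for PIP2;5, and 39.8, for RD28.

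Redox genes also differed strongly within families. CAT3, a catalase that removes hydrogen peroxide, had 1457, and CAT2, a leaf peroxisome catalase, had 417. Among superoxide dismutases the iron enzyme gene FSD1 had 503 and the copper and zinc enzyme genes CSD2 and CSD1 had 92.1 and 23.2, while FSD2 had 6.02. Metallothioneins, small metal-binding proteins, included MT2B at 1081, MT3 at 1073 and MT1A at 491, and MT1B at 1. Glutathione S-transferases were listed for 35 of 48 genes with a median of 8.06 (95% interval 3.96 to 34.5), led by GSTF9 at 541, GSTU19 at 443 and GSTU20 at 281, with GSTU24 at 1.

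Small heat shock protein genes had the lowest median over listed members, 1.05. With unlisted members set to 0 their median was 1, above the 0 of MADS-box factors and defensin-like proteins. Of 6 genes 4 were listed, HSP18.2 at 3.44, HSP17.4 at 1.11, and HSP17.6II and HSP17.6A at 1. HSP21 and HSP23.6-MITO were not listed. HSC70-1, a heat shock cognate chaperone of the cytosol, stood at 849 in the same library.

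Defence metabolites typical of the cabbage family were represented by a few deep genes. ESM1, which steers the breakdown of glucosinolates, had 1476, and the myrosinases TGG1 and TGG2, which cleave them, had 1029 and 371. The other listed members of this group of 12 lay between 1, for NSP2, and 50.3, for ESP, and 4 were not listed. CYP83A1, of aliphatic glucosinolate synthesis, was the deepest of 146 listed cytochromes P450 at 191. MYB28 and MYB29, which activate that pathway, were among the 3 deepest of 72 listed MYB factors, at 52.8 and 39.7. AOP2, a further gene of the pathway that the reference holds as a transcribed pseudogene, had 24.0 and was picked after its value was seen.

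The large enzyme and transporter families held members from a depth of 1 to 191. Cytochromes P450 were listed for 146 of 239 genes with a median of 4.81 (95% interval 3.02 to 8.13) and 21 of the 146 in the deepest 10%, and CYP706A6 at 178 and CYP706A1 at 132 followed CYP83A1, with CYP86C3 at 1. UDP-glycosyltransferases, listed for 47 of 64 genes, had a median of 8.90 (95% interval 2.81 to 11.7), or 2.46 with unlisted members set to 0, against 3.41 for all protein-coding loci treated in that way. Their deepest members were UGT88A1 at 141, UGT78D1 of flavonol glycosylation at 52.7, and MGD1, which makes the main lipid of thylakoids, at 48.5, and UGT76D1 was at 1.

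ABC transporters were listed for 102 of 127 genes with a median of 3.99 (95% interval 2.26 to 6.90). ABCF5 at 168, ABCI8 at 126 and PEN3, which exports defence compounds, at 83.7 were the deepest, and ABCG13 was at 1. Lipid transfer proteins were listed for 10 of 14 genes. LP1, the LTP1 gene of the epidermis, had 1204.5 and held 64.5% of the depth of this group, LTP5 had 266, LTP had 141 and AT3G22600 had 1.70.

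The WRKY, NAC, MYB and MADS-box families had medians below that of all loci. WRKY factors, which act in defence and stress, were listed for 50 of 71 genes with a median of 2.62 (95% interval 1.78 to 4.12), and WRKY70 at 39.7, WRKY11 at 33.5 and WRKY3 at 16.2 led, with WRKY36 at 1. NAC factors were listed for 70 of 98 genes with a median of 1.74 (95% interval 1.46 to 2.23), led by NAC083 at 66.6, NAC082 at 20.1 and NAC102 at 17.2, with NAC020 at 1. NAC102 overlaps the deeper locus SHA1, at 46.8, and their reads cannot be told apart. MYB factors were listed for 72 of 125 genes with a median of 2.28 (95% interval 1.43 to 3.14). MYBR1, also called MYB44, stood between MYB28 and MYB29 at 40.02, and MYB93 was at 1.

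Fewer than 50% of the MADS-box factors were listed, 36 of 98, against 72.9% of protein-coding loci. The median of the listed members was 1.40 (95% interval 1.016 to 4.20). SVP, a repressor of flowering, was the deepest at 49.1, followed by AGL87 at 26.5 and MAF1, a further repressor of flowering, at 24.1. SEP3, a floral organ gene, was listed at exactly 1, and AGL28 and AGL104 were not listed.

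Auxin gene families had higher medians than these 4 families. Aux/IAA repressors, which hold back auxin response, were listed for 25 of 29 genes with a median of 10.2 (95% interval 5.02 to 33.6), led by IAA8 at 106, IAA9 at 79.1 and IAA7 at 59.6, with IAA31 at 1. Auxin response factors were listed for 15 of 23 genes, with ARF2 at 65.6 above ARF1 at 14.6 and ETT at 13.8, and MP lowest at 2.52. MP overlaps AT1G19860, at 11.3. SAUR genes, which auxin induces in growing tissue, were listed for 63 of 80 with a median of 4.97 (95% interval 3.25 to 12.8). AT2G21210, which the reference also names SAUR6, was the deepest at 134, AT4G38840 (SAUR14) had 97.2, AT4G38860 had 94.7 and AT1G17345 had 1.

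Defensin-like genes, which encode small secreted peptides, were the least represented group, with 8 of 115 listed, or 6.96%, against 72.9% of protein-coding loci. LCR68 at 90.6 and LCR69 at 65.3 were nevertheless in the deepest 10%. SCRL7 had 12.5 and overlaps another locus, PDF2.1 had 1, and SCRL3 and PDF1.4 were not listed. Across all 38 groups, 13 were listed at a share below that of protein-coding loci and 15 had every member listed.

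Many of these proteins are encoded by several gene copies, and the evenness of depth among them varied. Of 25 such families, 5 had over 90% of their summed depth in 1 copy, while in 10 the deepest copy was under 2 times the next. Near-identical copies can share reads, and the sources used here do not say how such reads were placed. The split among such copies is therefore uncertain, as in the RBCS, LHCB1, LHCB2 and tubulin families. The same holds for any near-identical copies in the function groups above.

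The copies of Rubisco and of the main antenna were all deep. For the Rubisco small subunit RBCS1A had 12915, RBCS3B 4152, RBCS1B 2459 and RBCS2B 1643, so RBCS1A held 61.0% of the sum and stood 3.11-fold above the next. Of the 5 LHCB1 genes CAB1 held 39.0%, CAB3 19.1%, LHB1B2 18.2%, CAB2 14.7% and LHB1B1 9.001%. In LHCB2 the leading copies were nearly level, LHCB2.1 at 4023 and LHCB2.2 at 3974, and LHCB2.3 had 1893.

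In the photosystems, both PSAD genes were deep, PSAD-1 at 3567 and PSAD-2 at 1820.39, as were both PSBQ genes, PSBQ-2 at 2466 and PSBQA at 1369. PSBP was the opposite case, with 3731 for PSBP-1 and 9.03 for PSBP-2, a ratio of 413. PSBP-2 overlaps AT2G30780, at 5.88, and their reads cannot be told apart. Plastocyanin and ferredoxin were in between, with DRT112 at 4366 against PETE1 at 312 and FED A at 2779 against FD1 at 383. Both ferredoxin-NADP reductase genes were similar, FNR2 at 418 and FNR1 at 347.

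Among enzymes, ATPC1 had 1369.85 and ATPC2 3.88, a ratio of 353, and AT3G60750 (transketolase 1) had 842 against 4.34 for transketolase 2. ATPC2 overlaps AVP1, at 247, and their reads cannot be told apart. HEMA1, the main glutamyl-tRNA reductase gene of green tissue, had 474 and HEMA2 had 9.53. For protochlorophyllide reductase, PORB had 707, POR C 248 and PORA 4.41, and PORA is known as the form of dark-grown seedlings. Catalase was split into CAT3 at 1457, CAT2 at 417 and CAT1 at 28.9. In the tubulins no copy dominated, with TUA6 at 340.2 holding 36.6% of the alpha and TUB6 at 179 holding 22.01% of the beta family.

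**Figure D3:**
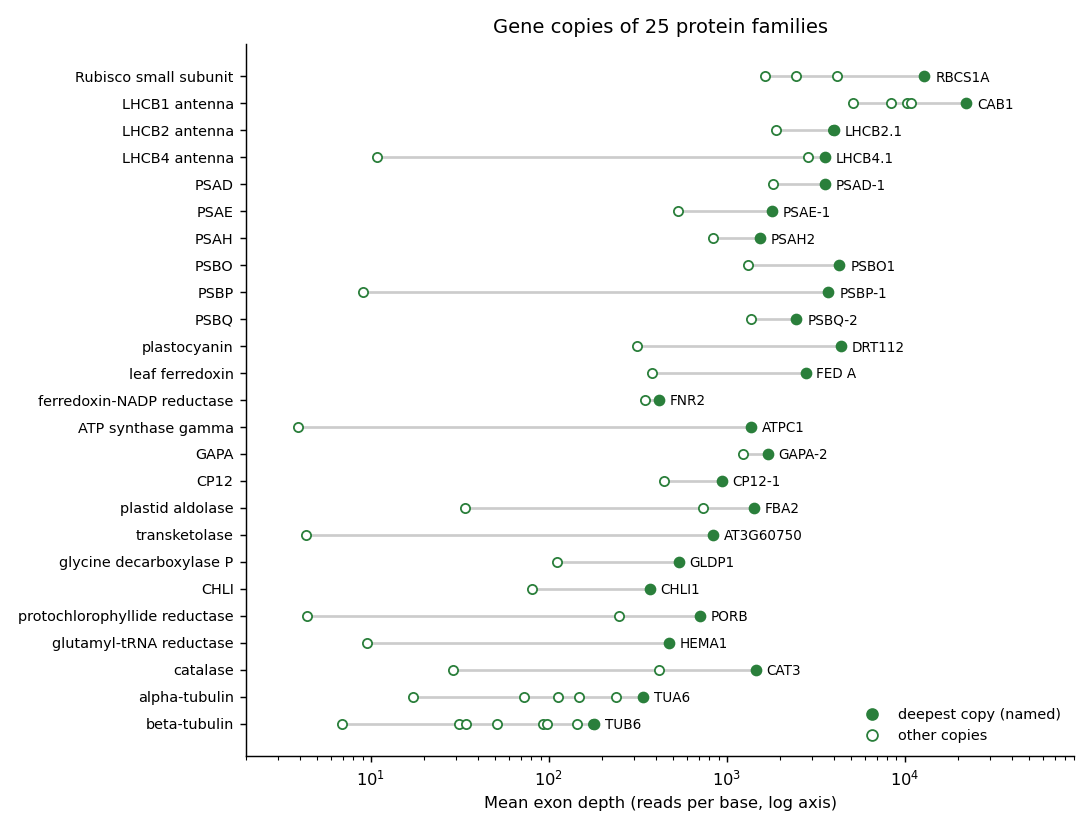
Each row is 1 of 25 protein families, with the mean exon depth of every gene copy in reads per base on a log x axis; the filled point is the deepest copy and open points are the others. The copies of LHCB2 lie within 2.13-fold, while LHCB4 spans 329-fold, ATP synthase gamma 353-fold and PSBP 413-fold. The shallow copies ATPC2 and PSBP-2 overlap other listed loci.

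Marker genes were set beside the labelled tissue as a description. Their lists were chosen with earlier results of these data known, so they are no independent check of it. The mesophyll markers RBCS1A and CAB2 are also among the 15 deepest loci described above. Over all protein-coding loci 72.9% were listed. All 3 mesophyll markers were deep, RBCS1A at 12915, CAB2 at 8364 and CA1 at 1204. All 6 epidermis markers were listed, with LTP1 at 1204.5, the wax and cuticle genes CER6 at 111, FDH at 98.5 and CER5 at 72.7, and the epidermal genes PDF1 at 26.8 and ATML1 at 20.0. For the phloem, the sucrose loader SUC2 had 112, AHA3 had 59.1, SEOR1 had 14.8 and APL had 11.7. For the xylem, the proteases XCP2 and XCP1 had 20.7 and 12.7, and the wall genes CESA4, CESA8 and CESA7 lay between 2.44 and 4.01.

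Markers of guard cells and their precursors were all listed. The 10 genes ran from 1.92 to 12.01, 3 of them above the median of all loci, with the potassium channel KAT1 at 12.01, MYB60 at 9.03, FAMA at 7.56, TMM at 5.25, EPF1 at 3.90 and the anion channel SLAC1 at 3.67. The early precursor genes EPF2, MUTE and SPCH had 2.60, 2.12 and 1.92, and HT1 had 2.09. Of the trichome genes GL2 had 14.4 and TRY 3.10, and GL1 and GL3 were not listed. In a whole leaf a low depth from few cells and a low depth from little RNA per cell cannot be told apart.

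Of 19 markers of other organs 4 were listed, at depths of 1 to 1.41, against 72.9% of protein-coding loci listed. None of the 4 shoot meristem genes STM, WUS, CLV3 and KNAT1 was listed. Of the root genes CASP1 had 1.18 and RHD6, PLT1, PLT2 and EXPA7 were not listed, and of the flower genes AG had 1.41 and AP1, AP3 and PI were not listed. The pollen gene VGD1 and the seed gene LEC2 were listed at exactly 1, and MGH3, CRA1, SESA1 and OLEO1 were not listed.

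**Figure D4:**
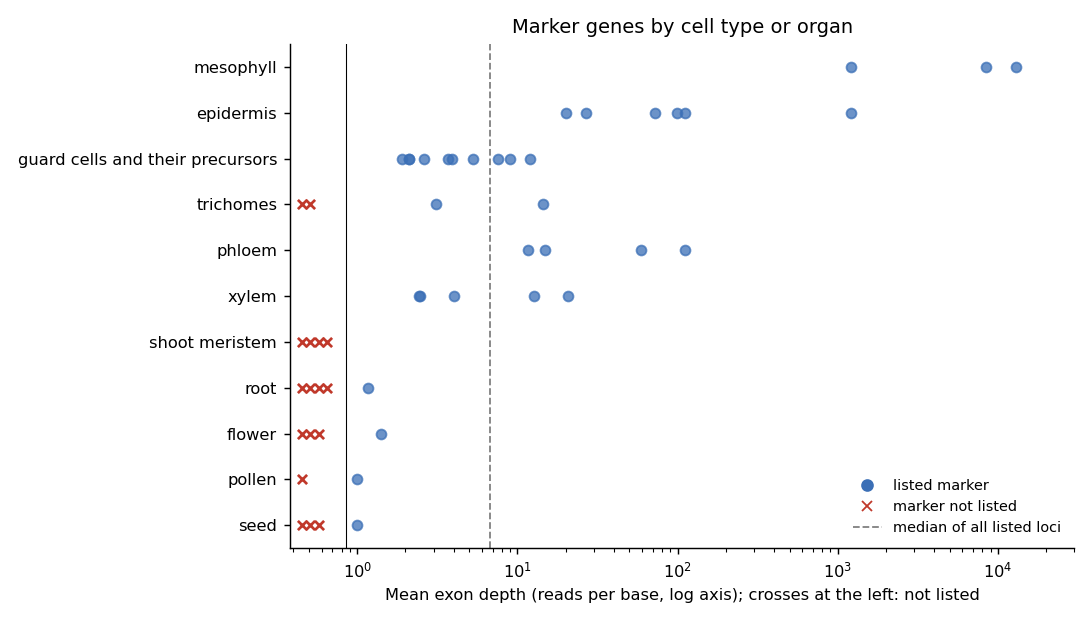
Mean exon depth in reads per base on a log x axis of 51 marker genes in 11 lists; points are listed markers, crosses at the left are markers that were not listed, and the dashed line is the median of all listed loci. Mesophyll, epidermis and phloem markers lie above the dashed line, and no listed marker of root, flower, pollen or seed exceeds 1.41.

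Clock genes cycle over the day, and the hour of sampling was not given in the sources used here. PRR7 had 68.9, PRR9 25.99, CCA1 21.9, GI 21.0 and ELF3 7.01, all above the median of all loci. PRR5 had 4.47, TOC1 3.57, ELF4 3.01, LHY 2.54 and LUX 1.99. PRR9 and PRR7 are known as genes of the morning and midday, and TOC1, ELF4 and LUX as genes of the evening. No phase is given here for the other clock genes, among them CCA1 at 21.9, GI at 21.0 and LHY at 2.54. No time of day is drawn from 1 library.

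Genes of pathogen response and of ageing were of low to middle depth. PR1, PR2 and PR5, which salicylic acid induces, had 1.15, 13.6 and 8.34, and PDF1.2, which jasmonate and ethylene induce, had 5.79. SAG12, a protease gene of senescent leaves, was not listed, SEN1 had 3.87, and ASN1, induced in the dark, had 5.72.

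Loci outside the 5 nuclear chromosomes were looked for by their identifiers. There were 0 identifiers of the chloroplast genome, for which the reference has 129 loci, and 0 of the mitochondrial genome, with 284. Transcripts of both genomes were therefore not analysed here. From AT2G07599 to AT2G07835 lies the stretch of chromosome 2 known to hold a copy of the mitochondrial genome. Of the 189 reference loci of that stretch 61 were listed, with a median depth of 1.19 and a highest depth of 3.75, and 25 stood at exactly 1.

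The reference placed 20677 of the 20764 loci on nuclear chromosomes and lacked the other 87. All 87 carry identifiers of a nuclear chromosome, and their median depth was 10.3. Of the 83 above a depth of 1, 44 had a depth identical to that of a neighbouring listed locus and 62 were within 10% of it. Identity was rare elsewhere, in 1 of 14933 adjacent pairs without overlap and in 3 of 2798 overlapping pairs. For example AT1G36732 and AT1G36730 both had 73.4, and AT3G02468 had 472 next to SAMDC, an enzyme gene of polyamine synthesis, at 502. The deepest unmatched locus, AT1G73602, had 522 beside AT1G73600 at 570.5. Whether such neighbours share reads was not tested, so their depths may not be separate measurements. The effect on sums is given in the closing section.

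The chromosomes had similar medians, from 6.33 on chromosome 1 to 6.90 on chromosome 2. Chromosome 1 held 26.6% of the listed loci and 33.3% of the summed depth, with CAB1, CAB2, CAB3, RBCS1A and LHCA3 among its loci. Without the 10 deepest loci of the table, of which 5 are on chromosome 1, its share was 28.1%.

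RNAs that do not code for protein held a small part of the depth. Protein-coding loci held 98.5% of the sum. Of 3480 long non-coding RNA loci 202 were listed, and 199 of these overlap another annotated locus. Of the 194 with a listed partner 137 had a depth within 25% of it, and the Spearman rho across these loci was 0.80. Whether such loci share reads with their partners was not tested. The deepest, AT3G22121, had 324 and overlaps CWLP, a cell wall protein gene, at 359.9, and AT2G23672 had 236 and overlaps YCF37 at 245.

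MicroRNA precursor loci were listed for 53 of 326, with a median of 1.67. MIR850 at 99.2 and MIR863 at 67.8 were the deepest, and both lie in AT4G13495, a non-coding RNA locus at 469.6. MIR414 followed at 59.1 and overlaps no annotated locus. MIR398c and MIR398b, whose mature RNA targets CSD1 and CSD2, had 21.8 and 21.1, and MIR167d had 19.8. The 4 nuclear ribosomal RNA loci had 619.9, 499.996, 127 and 121. They held 0.209% of the summed depth. Of 625 transfer RNA loci 34 were listed, 19 of them at exactly 1. GUT15, a non-coding RNA, had 117. The non-coding loci named were picked after their values were seen.

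The domains of both histone marks, deposited as 1 list per mark for the series, gave a separate readout from the same tissue. H3K4me3 is found at the start of transcribed genes and H3K27me3 is the mark of Polycomb repression. A locus counted as marked with 150 or more of its bases under domains. Among listed protein-coding loci 84.1% carried H3K4me3 and 18.4% carried H3K27me3. The listed loci were split by depth into 10 classes of 1999 or 2000 loci, with exact Clopper-Pearson 95% intervals that cover counting over loci only.

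H3K4me3 rose steeply over the shallow classes and then levelled. It was on 11.5% (95% interval 10.8 to 12.3) of the 7451 loci that were not listed and on 35.65% (33.5 to 37.8) of the shallowest class, which ended at a depth of 1.24. The share was 59.4%, 77.5%, 88.7% and 93.4% in the next 4 classes and 98.1% (97.4 to 98.7) in the deepest. H3K27me3 ran the other way, from 64.6% (63.5 to 65.7) of unlisted loci and 51.85% (49.6 to 54.1) of the shallowest class to 8.95% (7.74 to 10.3) in classes 6 and 8. In the deepest class it was 14.0% (12.5 to 15.6), above the intervals of classes 6, 7 and 8. With at least 50% of the gene body required, the deepest class had 4.25% (3.41 to 5.23) and class 8 had 3.25% (2.52 to 4.13), so those intervals overlapped. Counting only domains that score at least the median gave 4.55% (3.68 to 5.56) and 3.75% (2.96 to 4.68), with 4.85% in class 9.

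**Figure D5:**
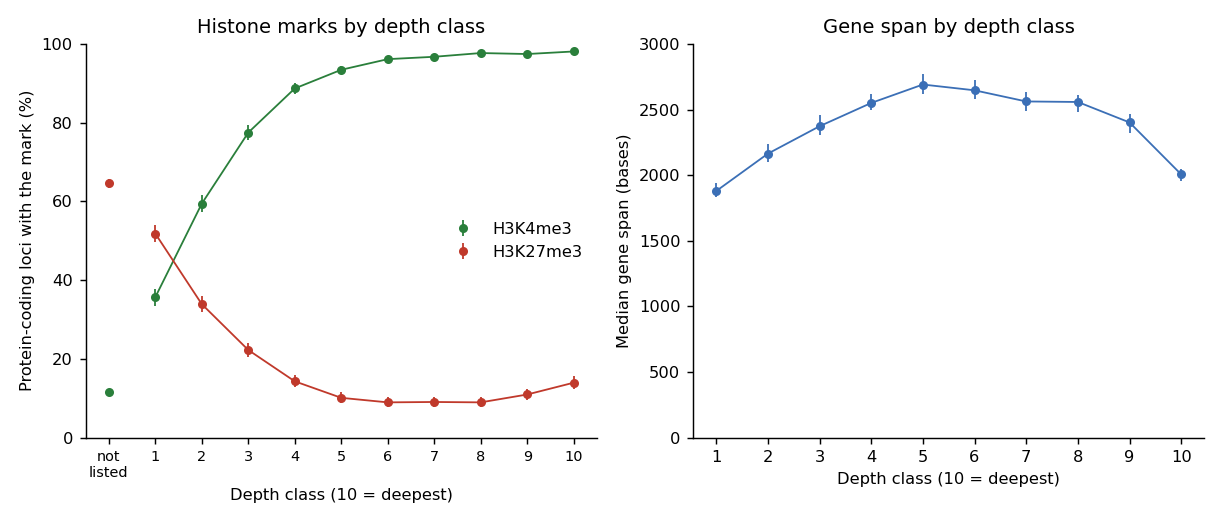
Left, the percentage of protein-coding loci with H3K4me3 or H3K27me3 for unlisted loci and for 10 classes of depth, with 95% Clopper-Pearson intervals. Right, the median gene span in bases of the same classes with its 95% interval over genes. H3K27me3 falls to 8.95% in the middle classes and is 14.0% in the deepest, and span peaks at 2691 bases in class 5.

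Of the 100 deepest loci 99 carried H3K4me3 and 24 carried H3K27me3, against 84.1% and 18.4% of listed protein-coding loci. The 1 locus without H3K4me3 was TGG1, which had H3K27me3. CAB3, LHCA3 and LHCB6 were the loci with H3K27me3 among the 15 deepest. The groups below are counted over listed and unlisted members, and over all 27444 protein-coding loci 64.4% had H3K4me3 and 31% had H3K27me3. All 40 proteasome and all 5 elongation factor genes lacked H3K27me3. Of the 12 myrosinase and specifier genes 11 had H3K27me3 and 3 had H3K4me3, and of 125 MYB factors 83 and 36.

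Gene span in the reference was shortest at both ends of the depth scale. The median span of listed protein-coding loci was 2376 bases. It was 1879 bases (95% interval 1832 to 1940.0) in the shallowest class, 2691 (2621 to 2775) in class 5 and 2006 (1953 to 2051) in the deepest class. The 100 deepest loci had a median span of 1556 bases (1404 to 1721).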

How the data were processed

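The authors deposited 1 mRNA table with a coverage signal per locus, the mean read depth over exons, and 1 list of domains per histone mark with a whole-number score per domain. Per the submitters' processing notes, the tools were Bowtie and SICER and the build TAIR10, with no version stated. The sources used here do not say how reads were counted, scaled, filtered or placed among copies. Names, overlaps and gene spans came from the RefSeq table of TAIR10.1, which matched 20677 of 20764 loci. The builds differ in name, so no coordinate is printed. As a check, 95.6% of H3K4me3 bases lay inside gene bodies, and 79.1% or 79.4% when domains were shifted by 500 bases either way. No sequence was available for the planned promoter and protein length results, which are not used here, and gene span was described in their place.

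Function groups (38, in 7 themes), copy families and marker lists were made from symbols, synonyms and loci, never from depth, but members and lists were chosen with earlier results of these data known. The named genes were the 15 deepest loci, the 3 deepest and the shallowest listed member of each group, up to 2 unlisted members where fewer than 50% were listed, every marker and the RBCS and CAB copies. Further copies and list members are named as examples. Intervals are 95%, from order statistics for medians and Clopper-Pearson for shares. The library was described in Python 3.11.15 with numpy 2.4.6, pandas 2.3.3 and scipy 1.17.1, and the calculations were tested on simulated data. Alternatives changed the loci summed, the treatment of unlisted, overlapping and depth 1 loci, the depth threshold and the rule for marks.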

Additional observations from a re-analysis of the deposited data

How the results depend on the processing

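No paired analysis was possible because there was 1 mRNA library and no result came from a test. The photosynthesis groups held 34.7% of the summed depth, 23.9% without the 10 deepest loci, and between 32.5% and 34.9% when unmatched or overlapping loci were left out, or identical neighbours counted once, an alternative chosen after seeing the data. The share of cytosolic ribosomal proteins, 0.652%, was 0.723% without overlapping loci and 0.760% without the 10 deepest. Groups with a median above that of all loci numbered 27, and 25 to 29 under the alternatives. Groups above 10% in the deepest 10% numbered 28, and 26 to 30 with other thresholds or denominators. Setting unlisted members to 0 moved 11 of 38 group medians outside their interval, to 0 for MADS-box factors and defensin-like proteins, and took expansins (1.56) and UDP-glycosyltransferases (2.46) from above to below the median of all loci, then 3.41. Without loci at exactly 1, auxin response factors (7.41) fell below it (7.66), while cytochromes P450 (7.91), xyloglucan endotransglucosylases (14.4) and defensin-like proteins (12.5) were above it. Without overlapping loci, glutathione S-transferases (5.95) were below it (6.60) and xyloglucan endotransglucosylases (9.44) above. There were 0 loci of organelle genomes and 87 when all unmatched loci were counted. The size of the marked shares depended on the rule. With at least 50% of the gene body covered, H3K4me3 was on 6% of the shallowest and 53.9% of the deepest class and H3K27me3 on 35.55% and 4.25%. When only domains scoring at least the median counted, H3K4me3 was on 4.05% and 83.4% and H3K27me3 on 37.6% and 4.55%. In class 8 these rules gave 3.25% and 3.75% for H3K27me3. Gene span had the same shape without overlapping loci, with medians of 1873, 2729 and 2021 bases in classes 1, 5 and 10. Weighting loci by protein length and narrowing the promoter window were not run. Depths have no replicate or counting error here, and the 1590 loci at a depth of exactly 1 cannot be ranked.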

Other observations

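Among the transcribed pseudogenes of the reference, 209 of 926 were listed, with a median depth of 1.60, and AT4G04692 at 91.1 was the deepest and overlaps no annotated locus. Of 3917 other pseudogenes 2 were listed, PMI15 at 21.6 and AT4G04409 at 10.6. Small nucleolar RNA loci were listed for 53 of 287, with AT1G74456 at 13.2, AT3G47347 at 12.7 and AT1G74453 at 12.05 as the deepest. Other non-coding RNA loci without an overlap included AT3G06125 at 99.8 and AT1G10682 at 57.9.

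Depths of neighbouring loci that do not overlap were nearly unrelated, with a Spearman rho of 0.03 across 14933 adjacent pairs, and the rho was 0.12 across 2798 overlapping pairs. Both are descriptions across loci of 1 library.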
